A study of Mus musculus with 27 samples.

Results

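The genes described here make, restrain and dissolve blood clots. They were taken from a fixed list, chosen with earlier results of these data known. It holds 34 mouse symbols for clotting factors, anticoagulants and fibrinolysis proteins (no threshold on a measured value is part of the rule). Of these, 33 matched 1 of the 41388 gene identifiers in the count tables. Klkb1, which encodes plasma prekallikrein, did not match and is not analysed here. Serpina5, the protein C inhibitor, had levels of 0 to 0.115 CPM (counts-per-million) over the 27 livers and did not pass the filter on low counts, so 32 members were tested beside 15121 genes in all.

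The livers came from ovariectomized female C57BL/6 mice with an age label of 120 days, 3 mice per group. TCDD (2,3,7,8-tetrachlorodibenzo-p-dioxin) binds and activates the aryl hydrocarbon receptor (AhR), a transcription factor that switches on xenobiotic metabolism genes. It was given by gavage in sesame oil at 8 doses (0.01 and 0.03, 0.1 and 0.3, 1 and 3, and 10 and 30 µg/kg), once every 4 days over 92 days, and the control group received sesame oil alone. One label also calls the dosing daily. The labels give no difference in genotype between the groups, and all mice had their ovaries removed, the controls included. Levels are CPM after scaling of the libraries, given for replicates 1, 2 and 3 in that order or as mean ± SD (n = 3). A gene was called when its adjusted p in edgeR's quasi-likelihood test was below 0.05. All 8 dose comparisons share the same 3 vehicle livers. The p-values set a difference between groups against the spread between mice, estimated over all 27 libraries.

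Library totals were 434011 counts for the second 0.3 µg/kg liver and 11050391 to 30873586 for the other 26. Cyp1a1, the main AhR target, checked the dosing: it stood at 3.69, 3.19 and 2.49 CPM in vehicle and 6938, 7943 and 6721 CPM at 30 µg/kg. All 10 hepatocyte markers were detected in every vehicle liver, Alb at 95944 to 192576 CPM. Per the file names, libraries from vehicle to 0.1 µg/kg carry one set of index sequences and those from 0.3 to 10 µg/kg another, so for these doses dose and index set cannot be told apart from the comparison with vehicle alone. No index of vehicle recurs from 0.01 to 10 µg/kg, so the 0.01 to 0.1 µg/kg livers also differ from vehicle in index. The 30 µg/kg group carries the same 3 indices as vehicle.

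Clotting begins when tissue factor (F3) meets factor VII, and is amplified through factors XI, IX and VIII until factor X with its cofactor factor V turns prothrombin (F2) into thrombin. Thrombin cuts fibrinogen into fibrin, and factor XIII crosslinks it. Antithrombin, the protein C system and tissue factor pathway inhibitor restrain the cascade, and plasmin, made from plasminogen by its activators, dissolves the clot. Hepatocytes secrete most of the soluble proteins, while endothelial cells, macrophages and other cells supply von Willebrand factor, thrombomodulin and the plasminogen activators with their receptor. In whole liver RNA, fewer cells of a type and less RNA per cell cannot be told apart.

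At the highest dose, 30 µg/kg, most of the factors that hepatocytes secrete were lower, and a smaller set of genes at low levels was higher. Of the 32 members tested, 26 were called: 19 fell and 7 rose. That is 81.2% of them, beside 37.4% of all genes tested. The 19 that fell were F7, F12, Kng1, Kng2, F5, F2, Fga, Fgb, Fgg, F13b, Serpinc1, Serpind1, Serpina10, Proc, Pros1, Proz, Plg, Serpinf2 and Hrg, and the 7 that rose were F3, Vwf, F13a1, Thbd, Plat, Plau and Plaur. The median log2 fold change was -0.57 over the members and -0.01 over all genes. The members differ in level, and high counts make small changes easier to call. The shares were therefore also taken above a floor of 10 CPM. This floor does not match the genes to the members in level, and many members lie far above it. Of the 7910 genes whose mean reached 10 CPM, 39% were called and 28% fell, and of the 23 members in that range 19 fell and none rose. Scaling the libraries by RLE factors raised every log2 fold change at 30 µg/kg by about 0.11 and gave 9 higher and 15 lower members, 22 of them among the 26.

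The list moved with dose in steps. In edgeR's test no member was called at 0.01, 0.03, 0.1 or 0.3 µg/kg, where 0%, 0.0397%, 0.192% and 1.18% of all genes were called. The members with an unadjusted p below 0.05 numbered 0, 2, 1 and 2 at these doses, and DESeq2 called none either. Over all genes at 0.01 µg/kg, edgeR called 0, with 724 at an unadjusted p below 0.05, and DESeq2 called 15. At 1 µg/kg 4 members rose and 4 fell, 25% of the list beside 19.4% of all genes. At 3 µg/kg 2 rose and 3 fell, 15.6% beside 10.1%. At 10 µg/kg 3 rose and 10 fell, 40.6% beside 22.5%. With RLE factors the split was 6 higher and 2 lower at 1 µg/kg, and 6 higher and 8 lower at 10 µg/kg. Single livers moved the counts at 1 and 3 µg/kg. Without vehicle replicate 1, 2 or 3, the count at 1 µg/kg was 4, 3 and 3, and that at 3 µg/kg was 3, 2 and 0. Without 1 µg/kg replicate 1 the count at 1 µg/kg was 5. Without 3 µg/kg replicate 1, 2 or 3 the count at 3 µg/kg was 2, 3 and 1, and it was 3 without 10 µg/kg replicate 3. The list thus stood close to the background up to 3 µg/kg and above it at the highest doses. From the lowest dose at which a call held its sign at all higher doses, Fgb fell from 1 µg/kg, Fga and Fgg from 3 µg/kg, and 7 members fell from 10 µg/kg.

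**Figure D1:**
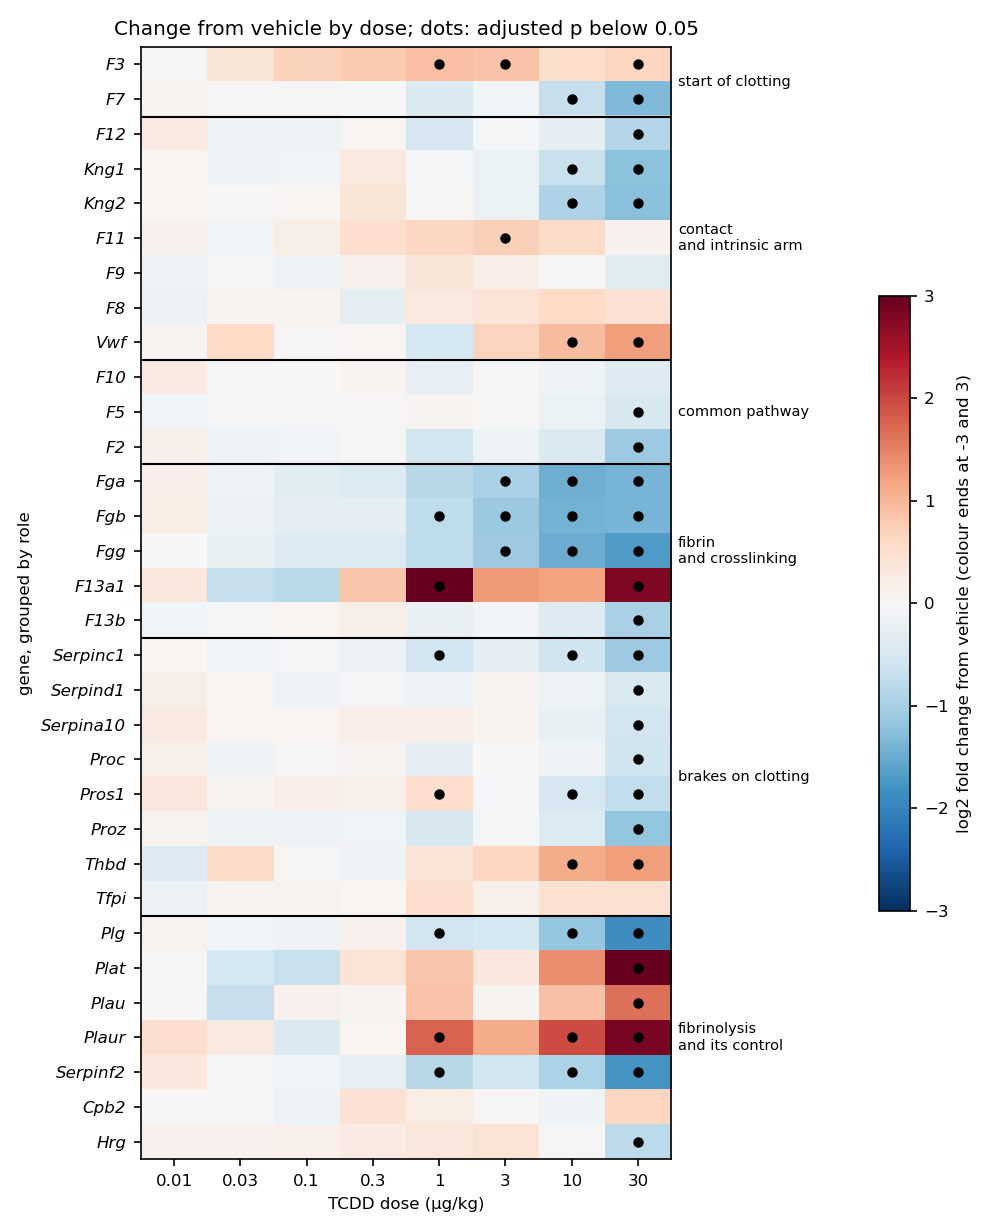
Log2 fold change from vehicle for the 32 members tested (rows, grouped by role) at each TCDD dose in µg/kg (columns), with dots where the adjusted p was below 0.05. Dots are absent up to 0.3 µg/kg, and the 30 µg/kg column holds 26 of them, 19 blue for lower and 7 red for higher.

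**Figure D2:**
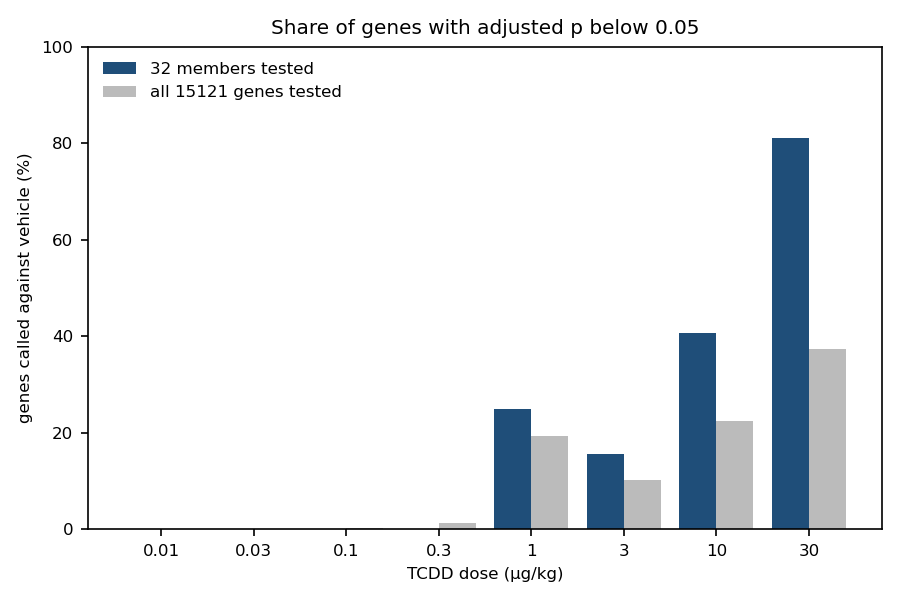
Share of genes called against vehicle at each TCDD dose in µg/kg, as bars from 0 to 100%, for the 32 members (blue) and for all genes tested (grey). The bars are 25% and 19.4% at 1 µg/kg and 81.2% and 37.4% at 30 µg/kg.

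All 3 livers at 30 µg/kg lay below all 3 vehicle livers for 19 members and above them for 9, and 4 overlapped. Of all genes tested, 25.9% lay wholly below vehicle at that dose and 23.9% above. At 10 µg/kg 14 members lay below, 7 above and 11 overlapped, beside 23.2% of all genes below and 20.7% above. At 0.3 µg/kg 1 member lay below, 1 above and 30 overlapped, beside 11.1% and 5.52% of all genes. The 33 matched members together took 3.14% to 3.40% of the counts of a vehicle library and 1.39% to 2.51% at 30 µg/kg. The hepatocyte markers moved in parallel: 7 of 10 fell at 30 µg/kg, 1 rose (Cyp3a11), and their summed level was 125839 to 236659 CPM in vehicle and 64328 to 105431 CPM at 30 µg/kg. The part of hepatocyte content in the members' changes was not tested.

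The 2 genes that start clotting moved in opposite directions. F3 encodes tissue factor, the membrane receptor that starts the cascade. It stood at 2.91, 1.62 and 1.73 CPM in vehicle, 3.39, 3.82 and 4.57 at 1 µg/kg, 4.48, 3.35 and 3.54 at 3 µg/kg, 3.21, 3.20 and 2.70 at 10 µg/kg and 3.57, 2.88 and 3.35 at 30 µg/kg. The 1 and 3 µg/kg livers were all above vehicle, while those at 10 and 30 µg/kg overlapped it. F3 rose at 1 µg/kg (log2 fold change 0.90, SE 0.25, adjusted p = 0.0121), at 3 µg/kg (log2 fold change 0.85, SE 0.25, adjusted p = 0.0321) and at 30 µg/kg (log2 fold change 0.63, SE 0.25, adjusted p = 0.0481), and its log2 fold change at 10 µg/kg was 0.53 (adjusted p = 0.133). The call at 30 µg/kg was lost in 16 of 34 alternative analyses, with adjusted p-values from 0.00761 to 0.18. The calls at 1 and 3 µg/kg were lost without vehicle replicate 2 or 3, and also without 1 µg/kg replicate 3 and without 3 µg/kg replicate 1 or 3 respectively, with adjusted p-values up to 0.0824 and 0.159.

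F7 encodes factor VII, the partner of tissue factor. It stood at 143, 146 and 146 CPM in vehicle, 139, 117 and 153 at 3 µg/kg, 90.0, 101 and 80.3 at 10 µg/kg and 47.6, 79.9 and 47.1 at 30 µg/kg. Both highest doses lay wholly below vehicle, where the 3 livers were within 4 CPM of each other. F7 fell 1.60-fold at 10 µg/kg (log2 fold change -0.68, SE 0.17, adjusted p = 0.0047) and 2.49-fold at 30 µg/kg (log2 fold change -1.32, SE 0.17, adjusted p = 1.47e-06).

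The contact and intrinsic arm split by gene. Of its 7 tested members, F12, Kng1 and Kng2 fell at 30 µg/kg and Vwf rose, while F11, F9 and F8 were not called. F12, the contact factor XII, went from 665 ± 73.8 to 359.8 ± 99.5 CPM (log2 fold change -0.89, SE 0.23, adjusted p = 0.00329). Kng1 encodes kininogen, the carrier of prekallikrein and source of bradykinin. Its level was 2410.5, 2121 and 2639 CPM in vehicle, 1659, 1657 and 1221 at 10 µg/kg and 769.6, 1121 and 1189 at 30 µg/kg. The groups at 10 and 30 µg/kg did not overlap vehicle, and Kng1 fell 2.33-fold at 30 µg/kg (log2 fold change -1.22, SE 0.21, adjusted p = 5.35e-05). It also fell at 10 µg/kg (log2 fold change -0.66, SE 0.21, adjusted p = 0.0221), a call lost in 5 of 34 alternatives, among them RLE scaling and those without vehicle replicate 1, vehicle replicate 3 or 10 µg/kg replicate 3 (adjusted p up to 0.167).

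Kng2, the neighbouring kininogen gene, stood at 262, 220.0 and 283 CPM in vehicle, 133, 157 and 112 at 10 µg/kg and 85.01, 108 and 128 at 30 µg/kg. All livers of both dose groups were below vehicle. Kng2 fell at both, with a log2 fold change of -0.93 (adjusted p = 0.000838) at 10 µg/kg and -1.25 (adjusted p = 1.43e-05) at 30 µg/kg. Both kininogen genes are close copies, and how reads shared between them were counted is not given in the sources used here, so their separate levels are uncertain.

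The amplifying factors did not follow. F11, factor XI, averaged 62.9 ± 8.60 CPM in vehicle, 102 ± 22.5 at 3 µg/kg and 69.0 ± 12.1 at 30 µg/kg. It rose at 3 µg/kg (log2 fold change 0.70, SE 0.23, adjusted p = 0.0481), but that call was lost in 8 of 34 alternatives, each of them leaving out 1 library except the replicate block (adjusted p up to 0.181), and its log2 fold change at 30 µg/kg was 0.13 (adjusted p = 0.682). F9, factor IX, had a log2 fold change of -0.37 (adjusted p = 0.175) at 30 µg/kg, with livers at 106, 185 and 183 CPM beside 176 to 224 in vehicle. F8, factor VIII, which endothelial cells make, stood at 8.19 ± 0.449 CPM in vehicle and 11.1 ± 1.65 at 30 µg/kg. All 3 livers lay above vehicle for F8, with a log2 fold change of 0.44 (adjusted p = 0.175).

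Vwf encodes von Willebrand factor, the platelet tether and carrier of factor VIII. It stood at 3.54, 5.54 and 3.89 CPM in vehicle, 5.54, 6.53 and 8.21 at 3 µg/kg, 8.62, 8.58 and 7.76 at 10 µg/kg and 9.49, 9.99 and 11.5 at 30 µg/kg. The livers of the 3 highest doses were all at or above the highest vehicle liver. Vwf rose at 10 µg/kg (log2 fold change 0.95, SE 0.26, adjusted p = 0.0107) and at 30 µg/kg (log2 fold change 1.26, SE 0.27, adjusted p = 0.000534). Its call at 10 µg/kg was lost without vehicle replicate 1 or without vehicle replicate 3, where the highest adjusted p was 0.0506. The other 5 vascular endothelial markers (Pecam1, Cdh5, Kdr, Tek and Emcn) were not called at 30 µg/kg, and the summed level of the list with Vwf was 87.2 to 107 CPM in vehicle and 85.8 to 141 CPM at 30 µg/kg. At 10 µg/kg 2 of the 6 were called, Vwf and Pecam1 (log2 fold change 0.68, SE 0.22, adjusted p = 0.0251). The sum at that dose was 131 to 150.4 CPM, wholly above vehicle. At 3 µg/kg none of the 6 was called, while the sum of 124 to 132 CPM was also wholly above vehicle. The part of these cells in the rise of Vwf was not tested.

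In the common pathway F5 and F2 fell at 30 µg/kg, and F10 was not called. F2, prothrombin, stood at 2088, 1780.0 and 2009 CPM in vehicle, 1617, 1448 and 1293 at 10 µg/kg and 750.3, 1265 and 728 at 30 µg/kg. All livers of both doses were below vehicle, and F2 fell 2.14-fold at 30 µg/kg (log2 fold change -1.10, SE 0.20, adjusted p = 0.000126), whereas the log2 fold change at 10 µg/kg was -0.43 (adjusted p = 0.128). F5, the cofactor of factor X, went from 559.7 ± 11.7 to 402 ± 78.0 CPM (log2 fold change -0.48, SE 0.17, adjusted p = 0.0325), a call that was lost in 13 of 34 alternatives, RLE scaling and DESeq2 among them. F10, factor X, stood at 599 ± 31.4 CPM in vehicle and 459 ± 97.2 at 30 µg/kg, and its log2 fold change was -0.39 (adjusted p = 0.0698).

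The genes for the 3 chains of fibrinogen, the precursor of fibrin, were each called lower at 3, 10 and 30 µg/kg. Fga (alpha chain) stood at 5925, 6554 and 8979.8 CPM in vehicle, 5655, 3751 and 2672 at 1 µg/kg, 4054, 3621 and 3281 at 3 µg/kg, 2926, 2244 and 2583 at 10 µg/kg and 1345, 2075 and 4793 at 30 µg/kg. Fgb (beta chain) stood at 4863, 6201 and 7609 CPM in vehicle, 5219.9, 3020.1 and 2835 at 1 µg/kg, 3635, 2549.6 and 2502 at 3 µg/kg, 2287, 2194 and 2542 at 10 µg/kg and 1409, 2042 and 3639.7 at 30 µg/kg. Fgg (gamma chain) stood at 4205, 4109.8 and 5573 CPM in vehicle, 3973, 2390.1 and 1791 at 1 µg/kg, 2503, 2065 and 1998 at 3 µg/kg, 1883, 1517 and 1579 at 10 µg/kg and 734, 1308 and 2219 at 30 µg/kg. For all 3 genes every liver at 3, 10 and 30 µg/kg was below every vehicle liver. At 1 µg/kg replicate 1 was close to the lowest vehicle liver, and for Fgb above it. In the 30 µg/kg group replicate 3 held more of all 3 transcripts than both other livers, at 4793 CPM for Fga. Fgg was below vehicle in all livers at 0.1 and 0.3 µg/kg too, at 3395, 3549 and 3473 CPM and 3268, 3218 and 3949.9 CPM, without a call (log2 fold changes -0.41 and -0.41, adjusted p = 1 and 0.684).

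The genes Fga (log2 fold change -0.97, SE 0.31, adjusted p = 0.0483), Fgb (log2 fold change -1.10, SE 0.27, adjusted p = 0.00666) and Fgg (log2 fold change -1.08, SE 0.28, adjusted p = 0.0126) all fell at 3 µg/kg. At 10 µg/kg they were 2.77-fold, 2.66-fold and 2.79-fold lower, with adjusted p-values of 0.00141, 0.000353 and 0.000422. Fga (log2 fold change -1.39, SE 0.32, adjusted p = 0.0012), Fgb (log2 fold change -1.397, SE 0.27, adjusted p = 0.000195) and Fgg (log2 fold change -1.70, SE 0.29, adjusted p = 4.38e-05) also fell at 30 µg/kg, and between 30 and 10 µg/kg none of them was called, with adjusted p-values of 0.912, 0.99 and 0.693. Without replicate 3 the log2 fold change of Fga at 30 µg/kg was -2.04. The calls of Fgb at 1 µg/kg (log2 fold change -0.75, SE 0.26, adjusted p = 0.0449) and of Fga at 3 µg/kg were lost in 18 and 26 of 34 alternatives (adjusted p up to 0.189 and 0.231). At 3 µg/kg the call of Fgb was lost without vehicle replicate 3 (adjusted p = 0.0551), and that of Fgg without vehicle replicate 3 or 3 µg/kg replicate 2 or 3 (up to 0.0813). At 10 and 30 µg/kg the calls of all 3 chains held in all 34, with a weakest adjusted p of 0.0413 for Fga.

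Relative to prothrombin, Fga was lower at 3 and 10 µg/kg. The ratio of Fga to F2 counts was 2.84, 3.68 and 4.47 in vehicle, 2.46, 2.18 and 1.63 at 3 µg/kg, 1.81, 1.55 and 2.00 at 10 µg/kg and 1.79, 1.64 and 6.59 at 30 µg/kg. All 3 and 10 µg/kg livers were below vehicle on this ratio, while replicate 3 at 30 µg/kg was above it. Relative to Alb, 3 members (Fga, Fgb and Fgg) lay wholly below vehicle at 3 and 10 µg/kg, and 1 (Plg) at 30 µg/kg. On the same ratio 9 members lay wholly above vehicle at 3 µg/kg, 9 at 10 µg/kg and 13 at 30 µg/kg, with F9, F10, F11 and Cpb2 among the 13. Alb itself spanned 95944 to 192576 CPM in vehicle and fell at 30 µg/kg (log2 fold change -1.15, SE 0.28, adjusted p = 0.00228). Fga and Fgb kept to each other more closely: the ratio of Fga to Fgb was 1.22, 1.06 and 1.18 in vehicle and 0.955, 1.02 and 1.32 at 30 µg/kg. Fgg did not keep to Fgb in this way. By the levels given, the ratio of Fgg to Fgb lay wholly below vehicle at 30 µg/kg.

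**Figure D3:**
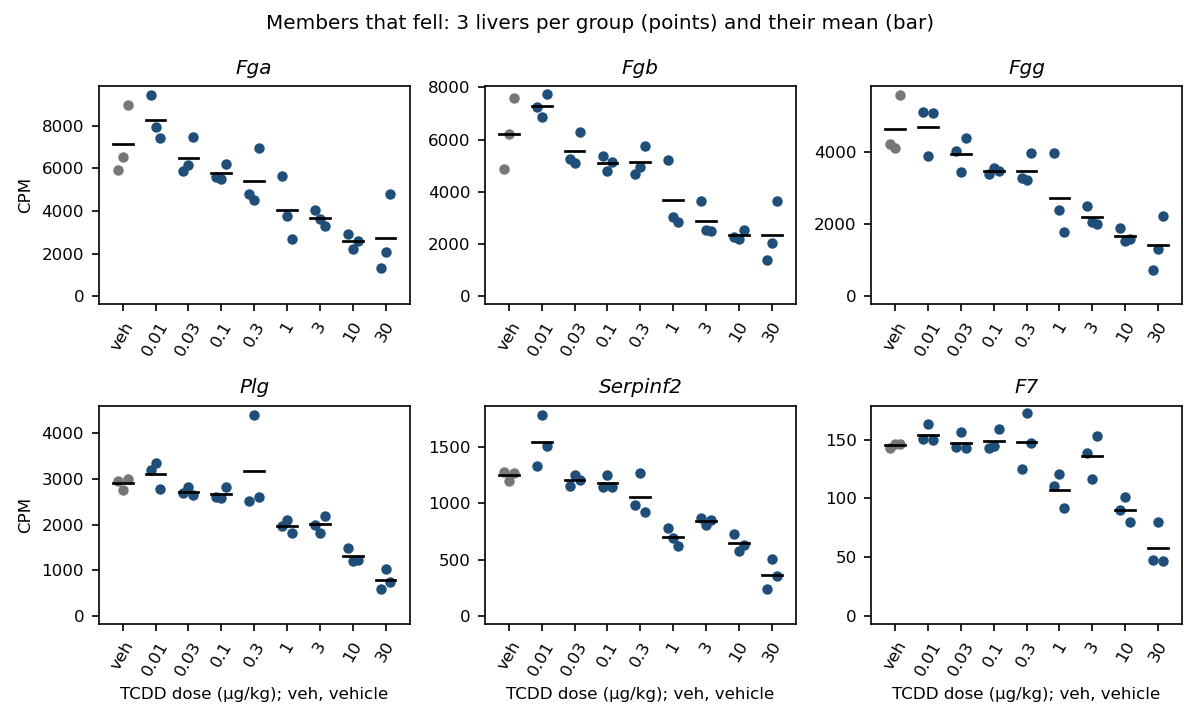
Levels in CPM (vertical linear axes) of 6 members that fell, by TCDD dose in µg/kg (horizontal axes); points are single livers, 3 per group, and bars their mean. For Fga the vehicle livers sit between 5925 and 8979.8 CPM and those at 10 µg/kg between 2244 and 2926 CPM.

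The 3 fibrinogen genes lie together on chromosome 3, Fgg 11026 bp from Fga and Fga 6513 bp from Fgb, with Fgb on the opposite strand. Their promoter windows are shown because the 3 transcripts fell at the same doses from 3 µg/kg on. Those of F3 and Plaur are 2 of the 3 windows at hand for members that rose at 30 µg/kg. The window of F13a1, the other one, held none of the 5 motifs marked below and is not shown. Each window runs 300 bases from 250 upstream to 50 downstream of a RefSeq transcript start (GRCm38.p6), 5′ to 3′ on the gene's strand. The windows are Fga at chr3:83025903-83026202 (plus strand), Fgb at chr3:83049814-83050113 (minus), Fgg at chr3:83007474-83007773 (plus), F3 at chr3:121723287-121723586 (plus) and Plaur at chr7:24462233-24462532 (plus). Capitals mark matches on either strand to 5 motifs, which were picked with the sequences in view: GTTAAT (a hepatocyte nuclear factor 1 core), TTGCNCAA (C/EBP type), CTGGGAA (an element of the acute-phase response), GCGTG (the core of AhR elements) and TGACTCA (AP-1 type).
Fga: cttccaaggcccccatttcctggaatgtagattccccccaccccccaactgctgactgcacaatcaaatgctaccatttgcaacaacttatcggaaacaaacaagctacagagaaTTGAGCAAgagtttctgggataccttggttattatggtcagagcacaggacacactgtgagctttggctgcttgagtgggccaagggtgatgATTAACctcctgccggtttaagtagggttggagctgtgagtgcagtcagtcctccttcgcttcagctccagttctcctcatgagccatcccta
Fgb: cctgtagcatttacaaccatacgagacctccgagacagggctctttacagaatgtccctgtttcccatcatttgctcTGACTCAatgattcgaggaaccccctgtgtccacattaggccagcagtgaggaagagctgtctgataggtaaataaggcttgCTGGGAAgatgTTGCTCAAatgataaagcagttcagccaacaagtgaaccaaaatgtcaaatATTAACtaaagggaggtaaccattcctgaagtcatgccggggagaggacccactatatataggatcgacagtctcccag
Fgg: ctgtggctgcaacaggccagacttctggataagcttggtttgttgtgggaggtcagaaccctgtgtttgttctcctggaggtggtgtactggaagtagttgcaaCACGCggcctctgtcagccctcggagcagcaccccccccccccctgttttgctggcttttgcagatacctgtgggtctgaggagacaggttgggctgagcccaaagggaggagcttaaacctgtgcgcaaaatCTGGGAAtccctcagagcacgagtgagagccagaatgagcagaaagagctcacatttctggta
F3: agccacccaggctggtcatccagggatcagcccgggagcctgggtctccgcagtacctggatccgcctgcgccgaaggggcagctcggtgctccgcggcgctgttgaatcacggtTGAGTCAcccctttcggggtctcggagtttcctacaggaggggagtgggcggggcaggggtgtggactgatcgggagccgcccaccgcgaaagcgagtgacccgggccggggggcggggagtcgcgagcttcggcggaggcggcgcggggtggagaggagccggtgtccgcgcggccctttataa
Plaur: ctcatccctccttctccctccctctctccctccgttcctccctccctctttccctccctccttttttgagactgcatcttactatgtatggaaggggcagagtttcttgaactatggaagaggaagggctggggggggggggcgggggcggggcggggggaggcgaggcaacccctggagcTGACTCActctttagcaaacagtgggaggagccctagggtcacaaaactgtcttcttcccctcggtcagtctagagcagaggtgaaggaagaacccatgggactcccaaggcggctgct

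In these windows no matches overlapped. Fga held TTGCNCAA, read on the minus strand, from 135 bases before the start and GTTAAT, also on the minus strand, from 43. Fgb held TGACTCA from 173, CTGGGAA from 91, TTGCNCAA from 80 and GTTAAT from 29 bases before the start. Fgg held GCGTG on the minus strand from 146 and CTGGGAA from 13 bases before it. F3 and Plaur each held TGACTCA, from 135 and 69 bases before the start. RefSeq windows were at hand for 25 members, 15 of which fell and 3 of which rose at 30 µg/kg. GTTAAT was in the windows of 5 of the 25, all among those that fell, beside 7.10% of 32851 windows of all genes. TTGCNCAA was in 6 of the 25 beside 2.94%, CTGGGAA in 5 beside 11.1%, GCGTG in 3 beside 32.4% and TGACTCA in 3 beside 5.20%. The motifs were picked with the sequences in view, so these shares do not test enrichment, and the matches describe the letters of the windows.

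The factor XIII genes, whose products crosslink fibrin, moved apart. F13b, the carrier subunit secreted by hepatocytes, went from 207 ± 3.39 to 106 ± 21.7 CPM (log2 fold change -0.97, SE 0.16, adjusted p = 3.54e-05). F13a1, the catalytic subunit made by macrophages and megakaryocytes, was scarce at 0.187, 0.261 and 0.201 CPM in vehicle. It stood at 11.1, 0.214 and 1.52 CPM at 1 µg/kg, 0.568, 0.232 and 0.675 at 10 µg/kg and 1.51, 0.807 and 2.29 at 30 µg/kg. All 30 µg/kg livers were above vehicle, and at 1 µg/kg a single liver carried most of the signal. F13a1 rose at 1 µg/kg (log2 fold change 4.27, SE 0.94, adjusted p = 0.00254) and at 30 µg/kg (log2 fold change 2.80, SE 0.95, adjusted p = 0.0239). Without replicate 1 the log2 fold change at 1 µg/kg was 1.93 with an adjusted p of 0.0964, and at 30 µg/kg the call was lost without any 1 of the vehicle livers or without 30 µg/kg replicate 3.

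Some markers of blood-derived cells were higher at 1 and 30 µg/kg, where F13a1 was called. F13a1 was not called at 10 µg/kg. At that dose 3 of 8 neutrophil, 5 of 9 recruited macrophage and monocyte and 4 of 7 tested platelet markers rose. Of 7 Kupffer cell markers 0 were called there. In the 1 µg/kg group the summed level of 8 neutrophil markers was 1110.1, 5.25 and 186 CPM and of 9 recruited macrophage and monocyte markers 521, 74.1 and 349.7 CPM, beside 1.20 to 2.76 and 56.7 to 88.4 CPM in vehicle. The 30 µg/kg livers had 8 of 8 and 6 of 9 of these markers called higher, with sums of 51.9 to 122 and 192 to 488 CPM. In vehicle 6 of the 8 neutrophil markers (Ngp, Camp, Ltf, Mpo, Elane and Retnlg) had no count in at least 1 liver. Kupffer cell markers summed to 1428, 365 and 806 CPM at 1 µg/kg and 182 to 321 CPM at 30 µg/kg, beside 235 to 348 CPM in vehicle. Of 7, 6 were higher at 1 µg/kg, and 0 were higher and 1 lower at 30 µg/kg. The summed level of 11 platelet markers was 10.7 to 11.8 CPM in vehicle. It was 33.3, 8.90 and 18.6 CPM at 1 µg/kg and 17.9 to 19.2 CPM at 30 µg/kg. At each of these doses 3 of 7 tested rose, and Gp6 was at 0 in all 3 livers at 30 µg/kg. The part of these cells in the rise of F13a1 and Plaur was not tested.

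Among the brakes on clotting, 6 of 8 tested members fell at 30 µg/kg and 1, Thbd, rose. Serpinc1 encodes antithrombin, the main inhibitor of thrombin and factor X. It stood at 2918, 2319.6 and 2902 CPM in vehicle, 1493, 2024 and 1978 at 1 µg/kg, 1819.5, 1950.1 and 1634 at 10 µg/kg and 1208, 1650.5 and 971 at 30 µg/kg. All 3 dose groups lay below vehicle, and Serpinc1 fell at 1 µg/kg (log2 fold change -0.57, SE 0.18, adjusted p = 0.0257), 10 µg/kg (log2 fold change -0.59, SE 0.18, adjusted p = 0.0178) and 30 µg/kg (log2 fold change -1.09, SE 0.18, adjusted p = 3.51e-05). The calls at 1 and 10 µg/kg were each lost in 5 of 34 alternatives, among them those without vehicle replicate 1, vehicle replicate 3, 1 µg/kg replicate 1 or 10 µg/kg replicate 3, with adjusted p-values up to 0.153 and 0.114. As 34.4% of its exonic bases overlap Zbtb37 on the other strand and the strand setting of the counting is not given, its counts are uncertain to that extent.

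Proz encodes protein Z, the cofactor of the factor X inhibitor that Serpina10 encodes. Proz stood at 321, 308 and 310.2 CPM in vehicle, 271, 212 and 219.7 at 10 µg/kg and 109, 186 and 115 at 30 µg/kg, and fell 2.29-fold at the highest dose (log2 fold change -1.19, SE 0.18, adjusted p = 7.79e-06). Its 10 and 30 µg/kg livers were all below vehicle. Serpina10 went from 210.2 ± 30.4 to 143 ± 46.8 CPM (log2 fold change -0.55, SE 0.21, adjusted p = 0.0376). Serpind1, heparin cofactor II, went from 565 ± 20.4 to 414 ± 61.6 CPM (log2 fold change -0.45, SE 0.16, adjusted p = 0.0274). These 2 calls were lost in 10 and 9 of 34 alternatives, RLE scaling and DESeq2 among them.

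The protein C system also divided. Proc, protein C, went from 549.7 ± 81.3 to 364 ± 140.3 CPM, with livers at 366, 503 and 222 CPM that overlapped vehicle (log2 fold change -0.60, SE 0.23, adjusted p = 0.0392), and this call was lost in 18 of 34 alternatives. Pros1, its cofactor protein S, stood at 51.0, 51.4 and 52.5 CPM in vehicle, 97.6, 63.3 and 59.1 at 1 µg/kg, 34.5, 38.6 and 36.1 at 10 µg/kg and 26.95, 30.9 and 34.4 at 30 µg/kg. All 1 µg/kg livers were above vehicle and all livers at 10 and 30 µg/kg below it. Pros1 rose at 1 µg/kg (log2 fold change 0.51, SE 0.16, adjusted p = 0.0248) and fell at 10 µg/kg (log2 fold change -0.50, SE 0.16, adjusted p = 0.0228) and 30 µg/kg (log2 fold change -0.75, SE 0.16, adjusted p = 0.000607). The rise at 1 µg/kg was lost without any 1 of the vehicle livers, without 1 µg/kg replicate 1 or in the 6 libraries alone (adjusted p up to 0.299), and the fall at 10 µg/kg in 8 of 34 alternatives (up to 0.0937).

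Thbd, thrombomodulin, the membrane receptor on which thrombin activates protein C, stood at 3.06, 4.39 and 3.49 CPM in vehicle, 6.44, 5.56 and 5.16 at 3 µg/kg, 6.48, 8.53 and 8.77 at 10 µg/kg and 10.7, 6.45 and 9.04 at 30 µg/kg. The livers of the 3 highest doses were all above vehicle, and Thbd rose at 10 µg/kg (log2 fold change 1.12, SE 0.22, adjusted p = 0.000607) and 30 µg/kg (log2 fold change 1.26, SE 0.22, adjusted p = 8.42e-05). Beside it, 0 of 8 sinusoidal endothelial markers rose and 1 fell at 30 µg/kg, with sums of 289 to 408 CPM in vehicle and 261 to 409 CPM at that dose. At 10 µg/kg 1 of the 8 rose (Fcgr2b, log2 fold change 0.78, SE 0.20, adjusted p = 0.00529), with a sum of 430.1 to 464 CPM that lay wholly above vehicle. At 3 µg/kg none of the 8 was called, with sums of 357 to 422 CPM. The part of these cells in the rise of Thbd was not tested. Tfpi, tissue factor pathway inhibitor, went from 5.61 ± 0.69 to 7.67 ± 1.14 CPM, a log2 fold change of 0.45 (adjusted p = 0.0765) that passed the threshold in 7 of 34 alternatives.

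In fibrinolysis, the abundant substrate and its inhibitor fell while the scarce activators and their receptor rose. Plg encodes plasminogen, the precursor of plasmin. It stood at 2958, 2746 and 2997 CPM in vehicle, 1976, 2098 and 1808 at 1 µg/kg, 1998, 1828 and 2189.9 at 3 µg/kg, 1486, 1196 and 1231 at 10 µg/kg and 601, 1035 and 755 at 30 µg/kg. From 1 µg/kg on, every liver was below vehicle. Plg fell at 1 µg/kg (log2 fold change -0.56, SE 0.20, adjusted p = 0.0449), with that call lost in 24 of 34 alternatives, and fell 2.22-fold at 10 µg/kg (log2 fold change -1.15, SE 0.20, adjusted p = 0.000127) and 3.64-fold at 30 µg/kg (log2 fold change -1.86, SE 0.20, adjusted p = 9.39e-08). At 3 µg/kg its log2 fold change was -0.53 (adjusted p = 0.0902). An overlap with Slc22a3 on the other strand covers 11.3% of its exonic bases.

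Serpinf2 encodes alpha-2-antiplasmin, the main inhibitor of plasmin. It stood at 1275, 1195 and 1273 CPM in vehicle, 781, 696 and 623 at 1 µg/kg, 867, 809 and 851 at 3 µg/kg, 727, 579 and 629 at 10 µg/kg and 244, 506 and 355 at 30 µg/kg. All livers from 1 µg/kg on were below vehicle, and the calls at 1 µg/kg (log2 fold change -0.83, SE 0.19, adjusted p = 0.00314), 10 µg/kg (log2 fold change -0.95, SE 0.19, adjusted p = 0.000726) and 30 µg/kg (log2 fold change -1.76, SE 0.20, adjusted p = 1.38e-07) held in all 34 alternatives. At 3 µg/kg the log2 fold change was -0.57 (adjusted p = 0.0598). The ratio of Serpinf2 to Plg counts was 0.431, 0.435 and 0.425 in vehicle and 0.406, 0.489 and 0.47 at 30 µg/kg. The range at 30 µg/kg thus spanned that of vehicle, with livers on both sides of it. By the levels given, this ratio was below vehicle in all livers at 1 µg/kg and above it in all at 10 µg/kg.

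Plau, urokinase, which activates plasminogen at cell surfaces, stood at 2.01, 1.15 and 1.81 CPM in vehicle, 3.07, 2.46 and 3.71 at 10 µg/kg and 8.35, 3.11 and 4.20 at 30 µg/kg. Plaur, the urokinase receptor, stood at 0.373, 0.471 and 0.642 CPM in vehicle, 3.57, 0.393 and 1.31 at 1 µg/kg, 1.94, 1.86 and 2.07 at 10 µg/kg and 4.58, 2.07 and 4.25 at 30 µg/kg. Plat, tissue plasminogen activator, stood at 0.634, 0.575 and 0.482 CPM in vehicle, 1.60, 0.974 and 1.86 at 10 µg/kg and 6.80, 0.999 and 5.85 at 30 µg/kg. For all 3 genes the livers at 10 and 30 µg/kg were above vehicle, and for Plat replicate 2 at 30 µg/kg lay within the range of the 10 µg/kg livers. Plau rose 3.12-fold at 30 µg/kg (log2 fold change 1.64, SE 0.37, adjusted p = 0.00113), Plaur 7.25-fold (log2 fold change 2.86, SE 0.51, adjusted p = 9.43e-05) and Plat 7.96-fold (log2 fold change 2.99, SE 0.52, adjusted p = 6.41e-05).

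Plaur also rose at 1 µg/kg (log2 fold change 1.77, SE 0.53, adjusted p = 0.0191), where replicate 1 stood highest, and at 10 µg/kg (log2 fold change 1.97, SE 0.52, adjusted p = 0.00698). Without 1 µg/kg replicate 1 its log2 fold change at that dose was 0.71 (adjusted p = 0.395), and the call was also lost without vehicle replicate 1 or 2 and in the 6 libraries alone. Markers of stellate cells and fibroblasts and of bile duct cells moved with these genes at 30 µg/kg: 4 of 9 and 5 of 6 rose, with sums of 573 to 1036 and 110.4 to 334 CPM beside 292 to 391 and 42.2 to 59.0 CPM in vehicle. As with Plat and Plau, replicate 2 was the lowest of its group for both sums. No marker of these lists was at 0 in all 3 livers, and their part in the rise of Plat, Plau and Plaur was not tested. Of 5 B cell and plasma cell markers 3 rose (sum 16.4 to 19.4 beside 3.40 to 5.63 CPM), and of 3 mesothelial markers none was called (sum 3.50 to 9.45 beside 1.52 to 7.95 CPM). The ratio of Plau to Plg counts was 0.000681, 0.000419 and 0.000603 in vehicle and 0.0139, 0.00301 and 0.00556 at 30 µg/kg, with all treated livers above.

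**Figure D4:**
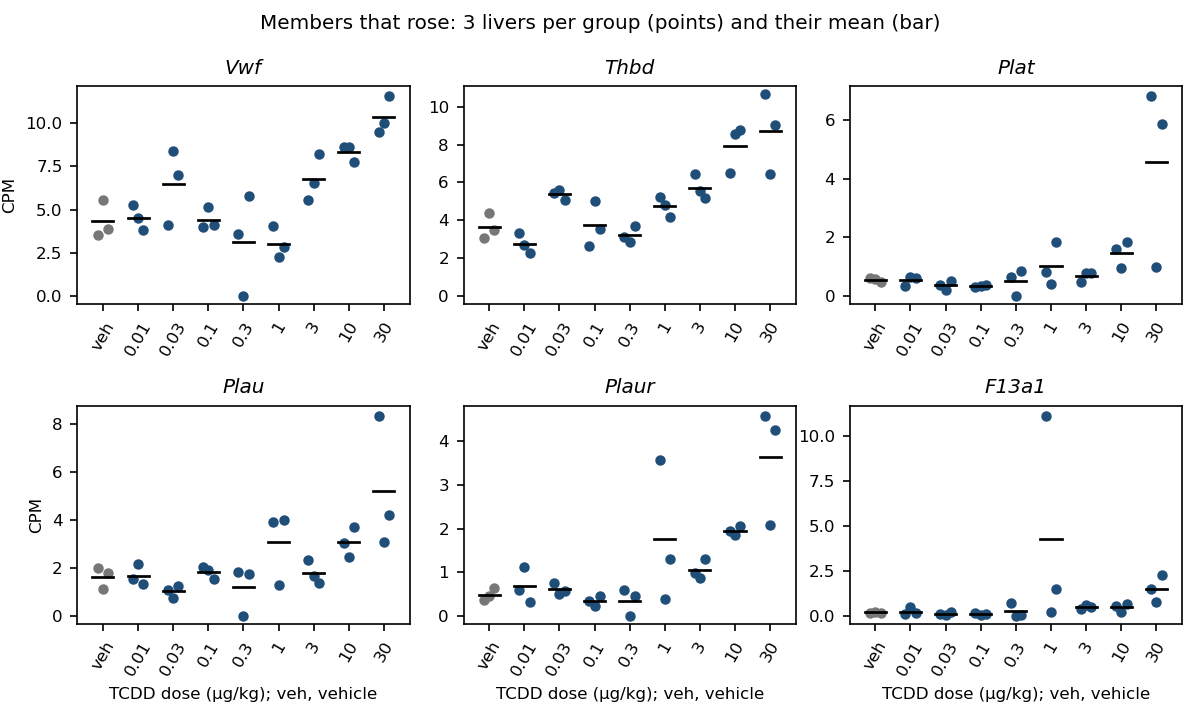
Levels in CPM (vertical linear axes) of 6 members that rose, by TCDD dose in µg/kg (horizontal axes); points are single livers, 3 per group, and bars their mean. For Plaur the 3 vehicle livers lie between 0.373 and 0.642 CPM and the 30 µg/kg livers between 2.07 and 4.58 CPM, and F13a1 shows the single high liver at 1 µg/kg.

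Cpb2, the thrombin-activated inhibitor of fibrinolysis, stood at 299.9, 381 and 359 CPM in vehicle and 403, 385 and 845 CPM at 30 µg/kg. All 3 treated livers were above vehicle, and replicate 3, the liver with the most fibrinogen transcripts in its group, stood highest. Its log2 fold change was 0.65 (adjusted p = 0.0684), past the threshold in 10 of 34 alternatives and 0.22 without replicate 3. Hrg, histidine-rich glycoprotein, which binds plasminogen and heparin, averaged 1147 ± 157 CPM in vehicle, 1513 ± 128 at 3 µg/kg, 1108 ± 61.8 at 10 µg/kg and 662 ± 236 at 30 µg/kg, and fell at the highest dose (log2 fold change -0.79, SE 0.20, adjusted p = 0.00301). All livers at 1 and 3 µg/kg were above vehicle for Hrg, without a call, and all at 30 µg/kg below it. A fit of the 6 libraries alone gave an adjusted p of 0.0574 at 30 µg/kg.

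Between the 2 highest doses 6 members were called, and all 6 were lower at 30 than at 10 µg/kg: F7, F13b, Proz, Plg, Serpinf2 and Hrg. That is 18.8% of the members beside 3.2% of all genes. Their log2 fold changes from 10 to 30 µg/kg were -0.64, -0.58, -0.78, -0.71, -0.81 and -0.74, with adjusted p-values from 0.0151 to 0.0464. Against vehicle, F7, Plg and Serpinf2 were already called lower at 10 µg/kg, while F13b, Proz and Hrg were not called there. A fit of these 6 libraries alone called no member and 2 genes of all tested, and no member was called without 10 µg/kg replicate 1, 30 µg/kg replicate 1 or 30 µg/kg replicate 3. Without 10 µg/kg replicate 2 there were 2 calls, and without 30 µg/kg replicate 2 there were 12.

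Over the rank of the dose, 17 members fell and 10 rose, 84.4% of the list beside 46.6% of all genes. F8, F10, F11 and Tfpi passed this test without a call at 30 µg/kg, F10 in all but 14 of 37 alternatives. The trend calls of Serpina10 (adjusted p = 0.0449) and Serpind1 (adjusted p = 0.0222) held in 5 and 28 of 37. Per step of dose, the slope was -0.21 for Fga, -0.22 for Fgb and -0.22 for Fgg on the log2 scale. Within the 0.3 to 10 µg/kg groups, which share an index set, 8 of 32 members were called, beside 6.79% of all genes tested there: Fga, Fgb, Fgg, Kng1, Kng2 and Plg fell, and Vwf and Thbd rose. Within vehicle to 0.1 µg/kg edgeR called 0 of 31 members, beside 0.356% of all genes, and 4 members had an unadjusted p under 0.05.

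Neighbouring members did not always move alike. F7, F10 and Proz lie in a row on chromosome 8, with 1498 bp between F7 and F10 and 4237 bp between F10 and Proz. The ratio of F7 to F10 counts was 0.243, 0.254 and 0.231 in vehicle, 0.173, 0.17 and 0.155 at 10 µg/kg and 0.11, 0.141 and 0.125 at 30 µg/kg, and that of Proz to F10 was 0.545, 0.536 and 0.489 in vehicle and 0.25, 0.33 and 0.306 at 30 µg/kg. Both ratios lay wholly below vehicle at 30 µg/kg. On chromosome 16 Hrg, Kng2 and Kng1 follow each other, with gaps of 24197 and 28382 bp. Hrg averaged above vehicle at 3 µg/kg, where both kininogen genes averaged below it, and all 3 fell at 30 µg/kg.

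Per kilobase of exon, the members' levels spanned a wide range. In vehicle the highest were Fga at 2376 ± 536, Fgg at 2212 ± 391 and Fgb at 1634 ± 360 CPM per kb, followed by Plg at 782 ± 36.3 and Kng1 at 735 ± 79.9. The ranges of the 3 fibrinogen genes over the vehicle livers overlapped, although Fgb was the lowest of the 3 in each of these livers, and those of Plg and Kng1 overlapped too. At 30 µg/kg Fga stood at 909.5 ± 604, Fgg at 679 ± 358 and Fgb at 620.3 ± 302, ahead of Cpb2 at 334 ± 160 CPM per kb, which had been 14th of 33 in vehicle. At the low end in vehicle were Plat at 0.0903 ± 0.0123 and F13a1 at 0.0321 ± 0.00591 CPM per kb.

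Other genes of the pathway were taken from lists of inhibitors and receptors, vitamin K enzymes and secretion factors, and fibrinogen relatives. Of 11 inhibitors and receptors tested, 4 rose at 30 µg/kg (F2r, F2rl1, Procr and Anxa2) and 4 fell (Serping1, Pzp, Tfpi2 and Lrp1), the call of Tfpi2 being lost in 7 of 34 alternatives (adjusted p up to 0.103). That is 72.7% of this short list called, beside 37.4% of all genes. F2r, a thrombin receptor, went from 10.8 ± 0.749 to 26.2 ± 2.00 CPM at the highest dose (log2 fold change 1.29, SE 0.17, adjusted p = 1.56e-06). All 3 treated livers were above the vehicle range of 10.2 to 11.6 CPM.

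F2rl1, a protease-activated receptor, stood at 0.298, 0.209 and 0.361 CPM in vehicle, 1.47, 2.12 and 1.54 at 3 µg/kg, 6.95, 6.96 and 6.58 at 10 µg/kg and 6.17, 6.45 and 6.70 at 30 µg/kg. It rose at 3 µg/kg (log2 fold change 2.50, SE 0.42, adjusted p = 0.000159) and again at 10 µg/kg (log2 fold change 4.51, SE 0.40, adjusted p = 5.55e-09) and 30 µg/kg (log2 fold change 4.42, SE 0.40, adjusted p = 4.47e-09), where the livers of both groups lay close together and none overlapped vehicle. Procr, the endothelial protein C receptor, went from 0.723 ± 0.32 CPM in vehicle to 2.36 ± 0.709 CPM at 30 µg/kg (log2 fold change 1.70, SE 0.46, adjusted p = 0.0046). Its log2 fold change was larger at 1 µg/kg (2.13, SE 0.46, adjusted p = 0.00168). Procr was also called at 10 µg/kg (1.35, adjusted p = 0.0342) but not at 3 µg/kg (1.03, adjusted p = 0.19). Anxa2, a surface receptor for plasminogen and tissue plasminogen activator, went from 12.5 ± 2.83 to 44.0 ± 14.9 CPM (log2 fold change 1.81, SE 0.27, adjusted p = 8.63e-06). S100a10, the partner of Anxa2, had a log2 fold change of -0.50 (adjusted p = 0.0833) and Plgrkt, another plasminogen receptor, of 0.36 (adjusted p = 0.147).

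Of 10 genes of the vitamin K cycle and of factor secretion tested, 2 were called at 30 µg/kg, which is 20% beside 37.4% of all genes, with few genes in the list: Mgp, a vitamin K-dependent inhibitor of calcification, rose (log2 fold change 1.25, SE 0.37, adjusted p = 0.00879), and Aifm2, a vitamin K reductase, fell (log2 fold change -0.43, SE 0.13, adjusted p = 0.013). The call of Mgp was lost without 30 µg/kg replicate 1 (adjusted p = 0.114), and that of Aifm2 with RLE factors, upper-quartile factors and DESeq2 and without 30 µg/kg replicate 1 or 3 (up to 0.11). Among the genes not called at 30 µg/kg, Furin, a protease that trims precursor proteins, stood at 284 ± 9.38 CPM in vehicle and 323 ± 30.4 CPM at 30 µg/kg, and Mcfd2, part of the receptor that exports factors V and VIII, at 237 ± 14.6 and 214 ± 5.55 CPM. Their log2 fold changes were 0.19 (adjusted p = 0.381) and -0.15 (adjusted p = 0.342). Mcfd2 was lower at 1 µg/kg (log2 fold change -0.52, SE 0.12, adjusted p = 0.00337), 3 µg/kg (log2 fold change -0.39, SE 0.12, adjusted p = 0.0364) and 10 µg/kg (log2 fold change -0.42, SE 0.12, adjusted p = 0.0125), and over the rank of the dose (adjusted p = 0.00941).

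Among fibrinogen relatives and genes of von Willebrand factor cleavage, Adamts13, the protease that cuts von Willebrand factor, went from 9.29, 7.95 and 9.87 CPM in vehicle to 2.56, 4.46 and 1.91 CPM at 30 µg/kg. It fell 3.00-fold (log2 fold change -1.59, SE 0.27, adjusted p = 4.74e-05), with no overlap, at the dose where Vwf was highest. Fn1, fibronectin, fell (log2 fold change -1.22, SE 0.19, adjusted p = 2.12e-05) and Fgl2, a membrane prothrombinase of macrophages and endothelium, rose (log2 fold change 1.401, SE 0.29, adjusted p = 0.000423). The log2 fold change of Fgl2 was larger at 1 µg/kg (1.75, SE 0.29, adjusted p = 0.000154). Vtn, vitronectin, an adhesive plasma protein, had a log2 fold change of -0.02 (adjusted p = 0.935). Fgl1, a fibrinogen-like protein of hepatocytes, stood at 435, 642 and 696 CPM in vehicle and 302, 339 and 1578 CPM at 30 µg/kg, high in the same replicate 3 as the fibrinogen genes and Cpb2, with a log2 fold change of 0.32 (adjusted p = 0.674).

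**Figure D5:**
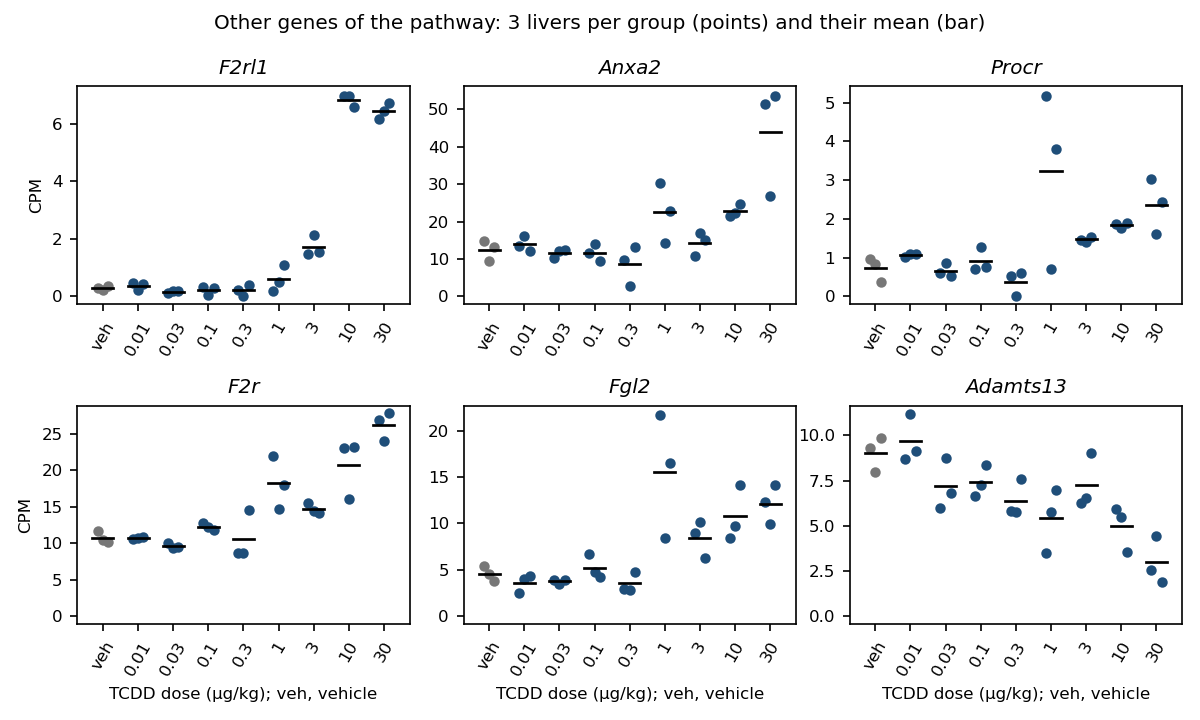
Levels in CPM (vertical linear axes) of 6 genes of the pathway outside the member list, by TCDD dose in µg/kg (horizontal axes); points are single livers, 3 per group, and bars their mean. F2rl1 lies between 0.209 and 0.361 CPM in vehicle and between 6.17 and 6.70 CPM at 30 µg/kg, and Adamts13 falls.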

How the data were processed

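The authors deposited raw counts of reads per gene, 1 table per library. Per the submitters' processing notes, the authors used FastQC 0.11.2, cutadapt 1.4.1, TopHat 1.4.1, SAMtools 0.1.19, HTSeq 0.6.1 and DESeq on GRCm38. Which tool did what, the release of the annotation and the strand setting were not given in the sources used here. The 5 summary lines of each library stayed out of library sizes and tests, and reads on no gene came to 5.62% to 11.9%.

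Symbols came from GENCODE M21 (GRCm38) for 40254 of 41388 identifiers. The counts were fitted in R 4.3.3 with edgeR 4.0.16: filterByExpr with a minimum of 10 counts, TMM factors, a robust quasi-likelihood fit of all 27 libraries, contrasts of each dose with vehicle and of 30 with 10 µg/kg, and a trend over dose rank from 0 to 8. Benjamini-Hochberg adjustment ran over all 15121 genes. The SE is the log2 fold change divided by the square root of F. The scripts were tested on simulated data.

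The members and lists were chosen with earlier results of these data known. All members were named, with values per liver for those called at 30 µg/kg with a log2 change of at least 1 in size, those called at 1 µg/kg and the fibrinogen genes; of each other list, up to 4 called genes by size and 2 uncalled genes by level. The ratios and Fgl1 and Cpb2 by liver were picked after values were seen. Library pairs within groups differed beyond sampling noise (chi-square per degree of freedom at least 6.07). Alternatives included DESeq2 1.42.0, other scaling and filters, a replicate block, fewer libraries and other dose groups. One gene of the other lists is not reported here.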

Additional observations from a re-analysis of the deposited data

How the results depend on the processing

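With RLE factors, upper-quartile factors, DESeq2 and 2 other low-count filters, members called at 10 µg/kg numbered 12 to 14 and at 30 µg/kg 22 to 24, beside 13 and 26. A fit of the 6 libraries compared gave 2 at 1 µg/kg and 0 between 30 and 10 µg/kg. Without the low-count filter 3 were called at 3 µg/kg. The cause was not tested. Leaving out each library gave 3 to 11 members at 1 µg/kg, 0 to 6 at 3 µg/kg (0 without vehicle replicate 3), 9 to 15 at 10 µg/kg, 20 to 28 at 30 µg/kg, 0 to 12 between 30 and 10 µg/kg, and 24 to 27 in the trend. No alternative called a member at or below 0.3 µg/kg.

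With the replicate block 9, 3, 14 and 26 members were called at 1, 3, 10 and 30 µg/kg, 8 between 30 and 10 µg/kg and 26 in the trend. Same-numbered libraries did not deviate together (median correlation 0.018 over 108 pairs, 20 above 0.1, and 10 of 27 libraries closest to their own number), so the numbers were not taken as pairs.

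In the trend within the 0.3 to 10 µg/kg groups, with fewer doses, 8 members were called, and the slopes of F3 (-0.0744), F13a1 (-0.81) and Serpind1 (0.0185) had the opposite sign. Within vehicle to 0.1 µg/kg 0 were called, and those of F7 (0.0067), Kng2 (0.0121), F13b (0.0218), Pros1 (0.0326), Plat (-0.243), Plau (-0.0133) and Plaur (-0.139) did. Members called neither in the trend over all doses nor in the narrower fit are left out of these lists of slopes. For genes near 1 CPM, such as F13a1, depth limits what can be called.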
